A study of Homo sapiens with 4 samples.

Results

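The 10 genes described here encode cytidine deaminases of the APOBEC3 family (APOBEC3A, APOBEC3B, APOBEC3C, APOBEC3D, APOBEC3F, APOBEC3G and APOBEC3H), the RNA editing enzyme ADAR, the deoxynucleotide hydrolase SAMHD1 and the virion tether BST2. They were taken by gene symbol, with earlier results of these data known, and each had 1 row among the 78932 gene rows of the count table. RNA was sequenced from RPMI 8226 cells, a long-established myeloma line of human origin known to carry a rearranged MAF gene. Cells were transfected with a locked nucleic acid (LNA) antisense oligonucleotide, a short modified strand that lowers the RNA it pairs with, and harvested after 72 h. A control LNA (2 libraries, dose not stated separately) was compared with an LNA against the long noncoding RNA LINC01432 (2 libraries, 50 nM). All 4 libraries thus share the transfection with an oligonucleotide, and no untransfected cells are among them. All come from 1 cell line and 1 oligonucleotide per group. Nothing in the labels tells whether 2 libraries of the same group came from separate cultures. The p-values therefore weigh the difference against the spread of these 4 libraries alone, part of which may be technical.

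APOBEC3 proteins turn cytosine into uracil in single-stranded DNA, which blocks retroviruses and retroelements and, when it reaches the genome, leaves clustered mutations. Such mutations are typical of myeloma with a MAF translocation, and APOBEC3A and APOBEC3B are the members usually held responsible. ADAR turns adenosine into inosine in double-stranded RNA, so that the cell's own RNA is not taken for viral RNA. SAMHD1 lowers the deoxynucleotides that reverse transcription needs, and BST2 (tetherin) holds budding virions at the cell surface. Many of these genes are known to be induced by interferon.

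The libraries held 20873393 to 29161298 gene counts. Levels are given as CPM, counts scaled to a common library size after TMM scaling. The floor used here, 3 counts in a library, equalled 0.103 to 0.140 CPM. Counts of LINC01432 were 598 and 440 with the control LNA against 193 and 250 with its own LNA, so the targeted RNA was lower in the libraries labelled for it (log2 fold change -1.02, SE 0.11, edgeR adjusted p = 0.000228). All 10 plasma cell and myeloma markers were detected. Their summed level was 3073 and 3260 CPM in the controls, then 2661 and 3018 CPM, so both LINC01432 LNA libraries lay below both controls. Of the 10, 3 fell (TNFRSF17, GPRC5D and XBP1, 0.691-, 0.692- and 0.782-fold) and 1 rose (CD38, 1.65-fold), with -0.21 as the median log2 fold change. The part of this shift in the members' values was not tested. The LINC01432 LNA libraries varied between themselves 10.5 times as much as counting error would give (variance ratio), the control libraries 3.38 times. Both ratios rest on library totals without TMM scaling. The TMM factors were 1.030 and 0.966 in the LINC01432 LNA pair and 1.001 and 1.004 in the controls. The part of this scaling in the ratios was not tested. Over all 18680 genes tested, 7.5% were called higher and 4.37% lower with LINC01432 LNA (edgeR, quasi-likelihood F test, with p-values adjusted by Benjamini-Hochberg and a threshold of 0.05), and the median log2 fold change was 0.01. These shares do not apply to fits with 1 library left out. Over all genes such fits gave fewer calls in both directions without a control library, and more without a LINC01432 LNA library.

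The APOBEC3 genes lie side by side on chromosome 22 (GRCh38, GENCODE 29, plus strand), from APOBEC3A at 38952741 to the end of APOBEC3H at 39104067, with APOBEC3F at 39040604 to 39053910 and APOBEC3G at 39077005 to 39087743. ADAR lies on chromosome 1 (154582057 to 154628013), SAMHD1 on chromosome 20 (36889773 to 36951901) and BST2 on chromosome 19 (17402939 to 17405648), all on the minus strand. The APOBEC3 genes arose by duplication, and their transcripts share runs of identical bases. A read that lies wholly within such a run, together with any mate, cannot be assigned to 1 gene. The coding parts of 2 such runs are shown because they tie APOBEC3F, which rose, to APOBEC3G, which also rose, and to APOBEC3B, which was not called. They are written 5′ to 3′ on the coding strand from the GENCODE 29 transcripts. Capitals mark the codons of the histidine, glutamate and pair of cysteines at the zinc site of the deaminase domain.
APOBEC3F and APOBEC3G: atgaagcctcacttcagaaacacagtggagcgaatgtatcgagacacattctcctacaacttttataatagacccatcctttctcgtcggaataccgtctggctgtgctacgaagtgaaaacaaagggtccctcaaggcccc
APOBEC3B and APOBEC3F: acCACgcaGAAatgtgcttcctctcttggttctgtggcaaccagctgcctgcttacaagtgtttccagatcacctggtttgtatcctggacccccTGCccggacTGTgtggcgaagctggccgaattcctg
The first run opens at the start codon and counts 142 coding bases of a longest identical stretch of 206. The second counts 131 bases and holds a complete zinc site. The search for this site found 2 in the coding sequences of APOBEC3B, APOBEC3D, APOBEC3F and APOBEC3G, and 1 in those of APOBEC3A, APOBEC3C and APOBEC3H. Of all stretches of 100 bases in a gene's transcripts, 13.3% for APOBEC3F, 5.05% for APOBEC3G, 25.1% for APOBEC3B, 18.4% for APOBEC3A and 80.2% for APOBEC3D also occur in another gene. None did so for APOBEC3C, APOBEC3H, ADAR, SAMHD1 or BST2. The annotation release and strand setting of the deposited counts were not given in what was used here, so the counts of the overlapping APOBEC3 genes are uncertain to this extent.

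In control cells the level per kb of exon fell in the order BST2, ADAR, APOBEC3C, APOBEC3B, SAMHD1, APOBEC3G, APOBEC3F, APOBEC3H, APOBEC3A. APOBEC3D, listed at 0.0741 CPM per kb, is not ranked, since most of its exonic bases overlap another gene model. BST2 stood at 344 ± 26.4 CPM per kb (SD, n = 2 libraries) and ADAR at 149 ± 4.75, above 99.3% and 98.4% of the tested genes. Within the APOBEC3 family, APOBEC3C (75.2 ± 1.38 CPM per kb) and APOBEC3B (58.7 ± 0.655) were the abundant members, followed at a distance by APOBEC3G (6.84 ± 0.0278) and APOBEC3F (3.82 ± 0.244). APOBEC3H (0.297 ± 0.00619) and APOBEC3A (0.218 ± 0.0821) lay within the spread of the APOBEC3A libraries of each other. With LINC01432 LNA the order of these 9 means was the same, as it was in control cells with the longest transcript as the length. Of the summed APOBEC3 level per kb as counted, which may leave out APOBEC3D RNA, APOBEC3C made up 51.8% ± 0.643 in control cells and 50.0% ± 0.829 with LINC01432 LNA, and APOBEC3B 40.4% ± 0.688 and 39.3% ± 0.236. The share of APOBEC3G was 4.71% ± 0.0468 in control cells and 6.43% ± 0.407 with LINC01432 LNA, and that of APOBEC3F 2.63% ± 0.153 and 3.61% ± 0.195. APOBEC3C and APOBEC3B thus made up most of the APOBEC3 RNA that was counted in both groups, while APOBEC3A had few counts.

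**Figure D1:**
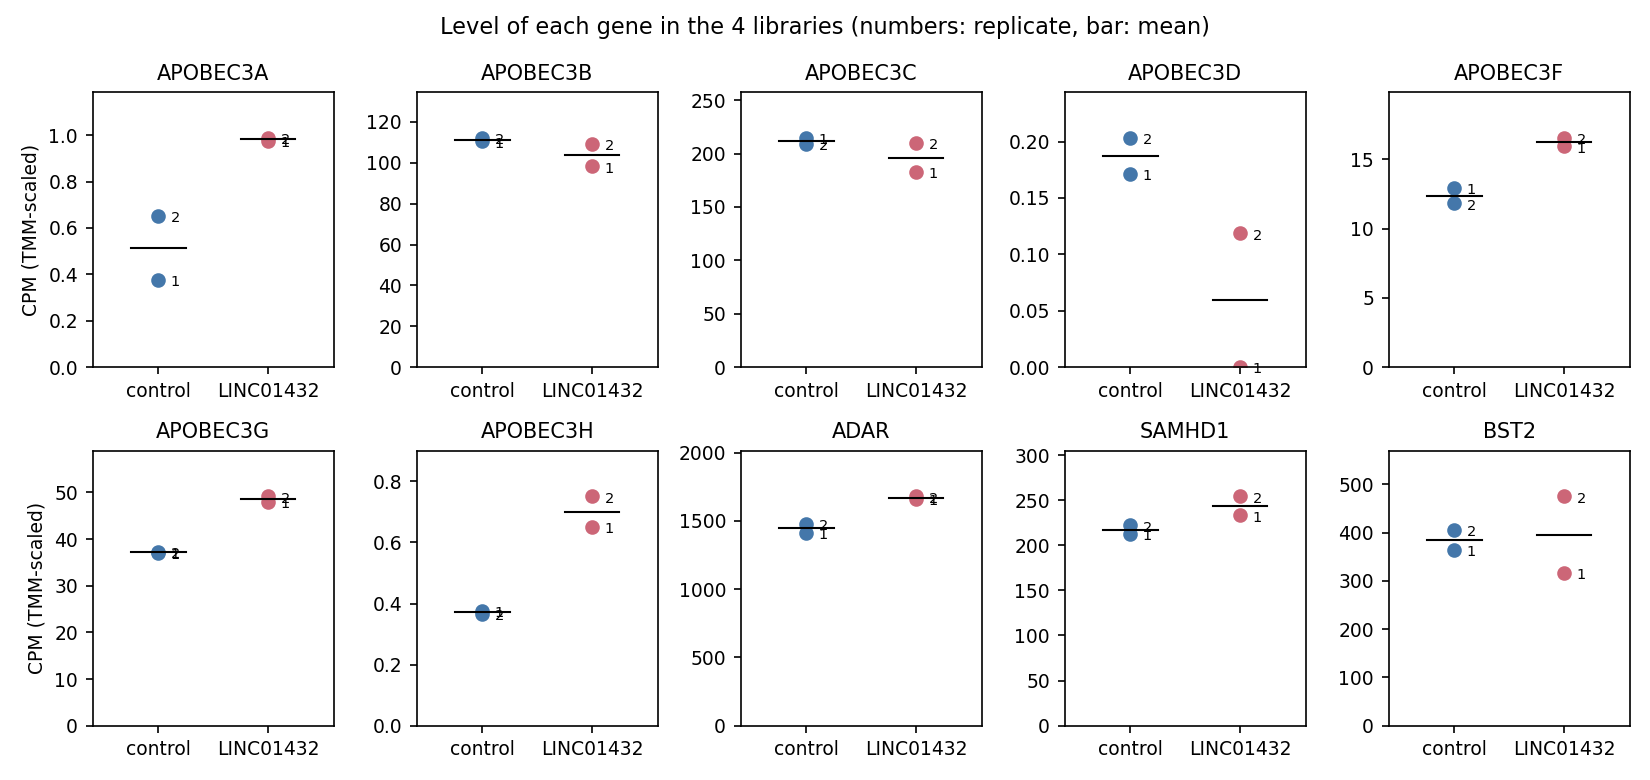
Level of each of the 10 genes in CPM (TMM-scaled, linear axes from 0) in the control LNA (blue) and LINC01432 LNA (red) libraries, with the replicate number beside each point and a bar at the group mean. APOBEC3F, APOBEC3G and ADAR lie higher in both LINC01432 LNA libraries, whereas the LINC01432 LNA libraries of BST2 (317 and 475 CPM) lie on either side of the controls.

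With LINC01432 LNA 2 of the 9 members tested rose, APOBEC3G and APOBEC3F, and 0 fell, while 7.5% of all tested genes were called higher. The remaining member, APOBEC3D, had too few counts for the filter and was not tested. The median log2 fold change of the 9 was 0.21, against 0.01 over all tested genes. In 6 of the 9 both LINC01432 LNA libraries lay above both controls, which held for 28.2% of all tested genes, and in 1 (APOBEC3B) both lay below, which held for 25.9%. In bulk RNA a change in the number of cells that express a gene and a change in RNA per cell cannot be told apart.

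APOBEC3G is the cytidine deaminase that is packaged into virions of human immunodeficiency virus lacking Vif. Its level was 37.1 and 37.3 CPM in the control libraries and 48.0 and 49.2 CPM in the LINC01432 LNA libraries. Each group was tight, and the groups lay well apart. The 1.31-fold rise (log2 fold change 0.39, SE 0.08, edgeR adjusted p = 0.00929) had a 95% interval of 1.16- to 1.48-fold. Its call was lost without control library 1 (log2 fold change 0.36, adjusted p = 0.265) and without control library 2 (0.38, adjusted p = 0.202), in fits that take the spread from the LINC01432 LNA pair and assume that the lone control varies likewise.

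APOBEC3F, a second Vif-sensitive deaminase, was measured at 13.0 and 11.8 CPM in the controls, then 16.0 and 16.6 CPM under LINC01432 LNA. Both LINC01432 LNA libraries again lay above both controls. It rose 1.31-fold as well (log2 fold change 0.39, SE 0.10, edgeR adjusted p = 0.0312; 95% interval 1.12- to 1.53-fold). The call was lost without control library 1 (adjusted p = 0.190), without control library 2 (0.413), with library totals as the only scaling (0.0535) and in DESeq2 (0.114). The number of APOBEC3G counts per APOBEC3F count was 2.86 and 3.15 in the controls, against 3.01 and 2.97 in the LINC01432 LNA libraries, so the ratio of this pair overlapped between the groups. The transcripts of this pair share the run of 206 bases given above, and the part of such reads in the parallel values was not tested.

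APOBEC3B, a nuclear deaminase linked to mutations in many cancers, had 110 and 112 CPM in the control libraries and 98.2 and 109 CPM in the LINC01432 LNA libraries. LINC01432 LNA library 1 was the low one, and library 2 lay under the controls as well. The log2 fold change of -0.10 (SE 0.08) did not pass (edgeR adjusted p = 0.492), and its 95% interval ran from 0.823- to 1.06-fold. APOBEC3C, a single-domain deaminase with weak antiviral activity, had 215 and 209 CPM in the controls, then 183 and 210 CPM. Here the groups overlapped. Its log2 fold change was -0.11 (SE 0.09, edgeR adjusted p = 0.481; 95% interval 0.811- to 1.06-fold). Without LINC01432 LNA library 2 both were called lower, APOBEC3B at -0.20 (adjusted p = 0.00560) and APOBEC3C at -0.23 (0.000197). Without LINC01432 LNA library 1 they stood at -0.05 and -0.03 and were not called.

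Within each library, ratios between family members do not depend on the scaling. APOBEC3G counts per APOBEC3B count were 0.336 and 0.332 in the controls, against 0.489 and 0.451 in the LINC01432 LNA libraries. APOBEC3F counts per APOBEC3B count were 0.117 and 0.105 against 0.162 and 0.152. Neither ratio overlapped between the groups, so APOBEC3G and APOBEC3F made up more of the family's RNA relative to APOBEC3B with LINC01432 LNA, by more than the spread within either group. APOBEC3B counts per APOBEC3C count were 0.514 and 0.536 against 0.537 and 0.520 and overlapped. The ratios were not tested, since an exact permutation test of 2 libraries against 2 cannot go below p = 0.333. The summed level of the 7 genes was 376 and 372 CPM in the control libraries and 347 and 386 CPM in the LINC01432 LNA libraries, which overlapped too.

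APOBEC3A, the most active DNA mutator of the family in cell assays, and APOBEC3H, a single-domain deaminase, were rare. APOBEC3A counts were 11 and 16 in the controls, then 21 and 25 under LINC01432 LNA. APOBEC3H had 11 and 9 counts, then 14 and 19. In CPM both genes were higher in both LINC01432 LNA libraries than in either control (APOBEC3A 0.377 and 0.651, then 0.977 and 0.988; APOBEC3H 0.377 and 0.366, then 0.651 and 0.751). Neither passed: the log2 fold changes were 0.95 (SE 0.39, edgeR adjusted p = 0.145) and 0.91 (SE 0.41, adjusted p = 0.189), with 95% intervals of 1.07- to 3.49-fold and 1.01- to 3.51-fold before adjustment. At this depth changes of this size in such rare RNAs were not resolved. Without control library 1 the value of APOBEC3A was 0.57. In GENCODE 29 the gene model of APOBEC3A reaches across APOBEC3B, which was far more abundant (111 CPM on average in controls), and 14.8% of APOBEC3A's exonic bases overlap other genes.

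APOBEC3D, which also restricts retroviruses, was counted 5 and 5 times in the control libraries and 0 and 3 times in the LINC01432 LNA libraries. These counts are at or near the floor, and no fold is given. In GENCODE 29, 83.2% of its exonic bases overlap the gene model AL022318.4, which itself had 0, 0, 1 and 0 counts. Whether reads of APOBEC3D were dropped as ambiguous was not tested, so its low count is no measure of its RNA.

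**Figure D2:**
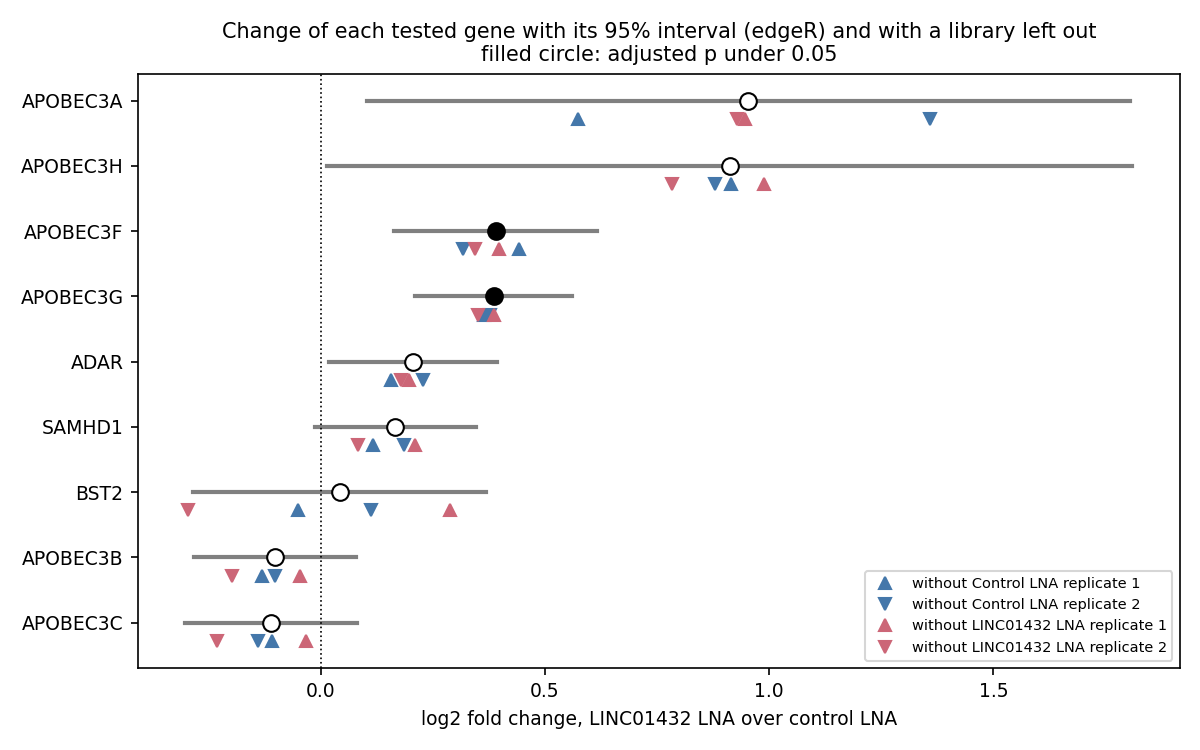
Log2 fold change (LINC01432 LNA over control LNA) of the 9 tested genes, with 95% intervals as bars, filled circles for an adjusted p under 0.05, and triangles for the value with 1 library left out. APOBEC3G and APOBEC3F (0.39 each) are the only filled circles. The triangles of BST2 spread from -0.30 to 0.29.

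ADAR was the most abundant of the 10 in CPM, at 1415 and 1480 in the controls, against 1659 and 1680 in the LINC01432 LNA libraries. Both LINC01432 LNA libraries were above both controls. The 1.15-fold difference (log2 fold change 0.21, SE 0.09; 95% interval 1.01- to 1.31-fold) did not pass the adjustment (edgeR adjusted p = 0.154). ADAR is made from a constitutive promoter and an interferon-inducible one, and the table gives 1 count for both forms together. Leaving out either LINC01432 LNA library gave a call (0.20, adjusted p = 3.47e-05; 0.18, adjusted p = 0.000694), with the spread taken from the control pair. ADARB1, the second active editing enzyme, went the other way: 42.2 and 37.4 CPM in the controls, then 31.3 and 31.1 CPM. It fell (log2 fold change -0.35, SE 0.09, edgeR adjusted p = 0.0255), a call lost without control library 1 or 2 (highest adjusted p 0.463). APOBEC1, an RNA-editing deaminase, was listed at 0 in all 4 libraries.

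SAMHD1 had 213 and 222 CPM in the control libraries and 233 and 254 CPM in the LINC01432 LNA libraries. The groups did not overlap, but the log2 fold change of 0.17 (SE 0.08; 95% interval 0.990- to 1.27-fold) was not called (edgeR adjusted p = 0.235). A call was made when LINC01432 LNA library 1 was left out (0.21, adjusted p = 0.000486), and with library 2 left out the value was 0.084 (adjusted p = 0.250). Of 15 tested genes that supply or clean the deoxynucleotide pool SAMHD1 acts on, 1 rose (6.67%, near the 7.5% of all tested genes) and 0 fell, and their median log2 fold change was 0.01. With 1 library left out, 0 to 5 rose and 0 to 2 fell. The riser was DCK, the kinase that salvages deoxycytidine, from 8.98 and 9.27 to 12.0 and 13.2 CPM (log2 fold change 0.47, edgeR adjusted p = 0.0197), not called without either control library or in DESeq2. The ribonucleotide reductase subunits RRM1 (-0.22, adjusted p = 0.0901) and RRM2 (0.19, adjusted p = 0.153) did not pass.

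BST2 is a textbook interferon-induced gene, and its promoter is shown because its motifs stand beside a level that did not separate the groups. The window is the RefSeq promoter (250 bases before to 50 after the transcription start) at chr19:17405581-17405880, minus strand, GRCh38.p14. Capitals mark matches, on either strand, to the core of the interferon-stimulated response element (ISRE: TTTC, any 2 bases, TTTC), to the STAT site GAS (TTCNNNGAA) and to the kB site of NF-kB.
BST2: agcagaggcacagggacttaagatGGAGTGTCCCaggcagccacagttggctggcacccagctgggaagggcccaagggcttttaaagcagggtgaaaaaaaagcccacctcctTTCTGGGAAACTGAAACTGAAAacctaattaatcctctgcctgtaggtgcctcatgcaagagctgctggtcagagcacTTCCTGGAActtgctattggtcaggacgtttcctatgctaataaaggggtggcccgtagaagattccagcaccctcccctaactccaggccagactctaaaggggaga
The ISRE core occurred as 2 overlapping matches from -130 to -115, the first of which overlaps a GAS match from -136 to -128. A second GAS match lay from -58 to -50 and the kB match from -226 to -217. Among 35116 promoter windows of 300 bases, 3.57% held the ISRE core, 7.66% a GAS and 5.91% a kB match. Windows were found for 4 of the 10 members (ADAR with 3 starts, SAMHD1, APOBEC3H and BST2), and the motifs matched in BST2 alone. A match describes the letters and not a bound site.

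The level of BST2 was 364 and 406 CPM in the control libraries and 317 and 475 CPM in the LINC01432 LNA libraries. LINC01432 LNA library 1 was the lowest of the 4 and library 2 the highest. The log2 fold change of 0.04 (SE 0.15; 95% interval 0.821- to 1.29-fold) did not pass (edgeR adjusted p = 0.901). A single library decided the direction: without library 1 of LINC01432 LNA the value was 0.29 (adjusted p = 5.39e-07), and without library 2 it was -0.30 (adjusted p = 7.62e-07). These opposite calls take their spread from the control pair. BST2 counts per ADAR count were 0.257 and 0.274, then 0.191 and 0.283.

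Among other restriction factors changes of over 2-fold were measured. Of 32 tested, 12 rose (37.5%, against 7.5% of all tested genes) and 3 fell (9.38%, against 4.37%). Their median log2 fold change was 0.28, and 8 to 15 rose when 1 library was left out. TRIM22, a ubiquitin ligase that limits viral transcription, rose from 5.21 and 7.16 to 19.1 and 24.1 CPM (3.52-fold). MX2, a GTPase that blocks nuclear entry of retroviral DNA, rose from 127 and 163 to 291 and 366 CPM (2.27-fold). GBP5, which lowers the infectivity of virions, rose 5.77-fold from a low level, and SLFN5 1.63-fold. These 4 had edgeR adjusted p-values of 0.000297 or less and were called in all 12 alternative fits. The 3 that fell were MARCHF8, MPHOSPH8 and SERINC3, named because the count is small. None fell without either control library or in DESeq2, and 1 did with library totals only or with a correction for GC content. BST2 was not the only gene with an ISRE core in its window that was not called. Of 28 listed restriction factors with a window, 7 held the motif. Of these, 4 rose (MX1, HERC5, ISG20 and SHFL) while TRIM5, IFITM1 and IFITM3 did not pass. Seen by call, the motif was held by 4 of the 7 that rose and by 3 of the 21 that were not called higher. A link between motif and call was not tested.

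Sensors and effectors of the double-stranded RNA that ADAR edits rose in 7 of 16 tested genes (43.8%, against 7.5% of all tested genes). The 1 that fell (6.25%, against 4.37%) was MAVS (0.823-fold, edgeR adjusted p = 0.0382). The median log2 fold change of the 16 was 0.25. DHX58, a regulator of the RIG-I family, went from 11.5 and 11.9 to 24.5 and 34.2 CPM (2.52-fold), and OASL from 42.0 and 48.2 to 95.8 and 144 CPM (2.66-fold). OAS3, which makes the activator of RNase L, rose 1.95-fold, and IFIH1, the sensor MDA5, 1.61-fold (edgeR adjusted p of 0.000371 or less for the 4 genes). EIF2AK2, the kinase PKR, did not pass (log2 fold change 0.04). Among the factors that carry the interferon signal, 3 of 12 rose (25%, against 7.5% of all tested genes) and 0 fell. The risers included IRF7 (2.87-fold) and IRF1 (by 0.58 on the log2 scale). In 7 of the 12 both LINC01432 LNA libraries lay above both controls (28.2% of all tested genes). In 3 both lay below (25.9% of all): IFNAR1 (-0.27), IFNAR2 (-0.32) and JAK1 (-0.16), not called. With 1 library left out, 3 to 5 rose and 0 to 3 fell. STAT2 did not pass (0.33, adjusted p = 0.0513).

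Among known regulators of APOBEC3B transcription 2 of 15 tested genes rose (13.3%, against 7.5% of all tested genes). In this list 0 fell (against 4.37%), and the median log2 fold change was 0.00. The count that fell depended on the fit: with the GC correction 3 rose and 2 fell. Without LINC01432 LNA library 1 some genes of the list were called lower, and so were more of all genes tested. The 2 that rose with all libraries encode noncanonical NF-kB subunits. RELB rose from 8.77 and 11.7 to 27.3 and 32.5 CPM (2.94-fold) and NFKB2 from 68.2 and 70.8 to 120 and 147 CPM (1.93-fold; edgeR adjusted p of 0.000159 or less). RBL2, a repressor of cell cycle genes, did not pass (-0.24, adjusted p = 0.130), and APOBEC3B itself was not called. MAF, which drives this subtype of myeloma, was at 555 and 565, then 529 and 477 CPM (log2 fold change -0.15, edgeR adjusted p = 0.293).

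**Figure D3:**
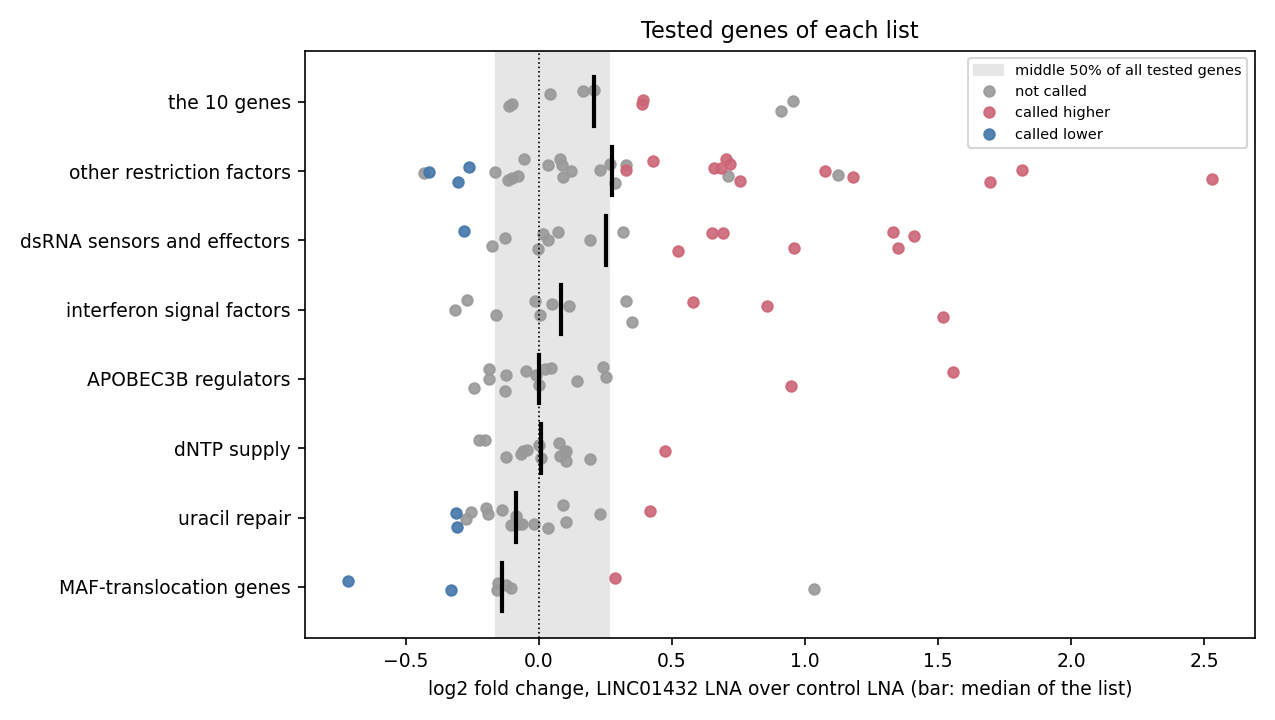
Log2 fold change of each tested gene (points, coloured by call) in 8 gene lists, with a bar at each median and a grey band from the lower to the upper quartile of all tested genes. The 10 genes (9 tested, median 0.21) reach at most 0.95, while the other restriction factors reach 2.53.

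Uracil left by a deaminase is removed by base excision. Of 17 tested genes of this and related repair, 1 rose (5.88%, near the 7.5% of all tested genes) and 2 fell (11.8%, against 4.37%). Their median log2 fold change was -0.09. UNG, the main uracil glycosylase, rose from 81.7 and 79.4 to 102 and 113 CPM (1.34-fold, edgeR adjusted p = 0.00675). TDG, a thymine and uracil glycosylase, fell (log2 fold change -0.31, adjusted p = 0.0392), as did POLH, a polymerase that passes DNA lesions (-0.31, adjusted p = 0.0433). All 3 calls were lost without control library 1 and without control library 2, and those of TDG and POLH also with library totals only, with a correction for GC content and in DESeq2, that of TDG also with no filter on low counts. Over the alternatives the log2 fold change was -0.36 to -0.23 for TDG and -0.38 to -0.26 for POLH. With 1 library left out, 0 to 3 genes of this list rose and 0 to 6 fell.

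Calls differed along the cluster on chromosome 22. Starting from APOBEC3A, the 2 genes that rose lie at 87.9 kb (APOBEC3F) and 124 kb (APOBEC3G), and APOBEC3B and APOBEC3C before them were not called. At the ends of the cluster APOBEC3A (log2 fold change 0.95) and APOBEC3H (0.91) had larger values from few counts and were not called. The calls therefore do not tell whether a rise was limited to APOBEC3F and APOBEC3G. Of 12 tested genes on either side, 1 rose and 1 fell (8.33% each, against 7.5% and 4.37% of all tested genes), and the median log2 fold change was -0.02. With the GC correction 3 fell, and without LINC01432 LNA library 2 it was 4. The nearest neighbours, CBX6 (0.04) and CBX7 (-0.04), encode Polycomb proteins and did not pass. NPTXR, a synaptic pentraxin receptor, fell from 134 and 124 to 91.6 and 104 CPM (edgeR adjusted p = 0.0140), a call lost without either control library. MGAT3, a glycosyltransferase, rose from 2.30 and 3.50 to 5.02 and 6.13 CPM (adjusted p = 0.0128), a call lost without control library 1.

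**Figure D4:**
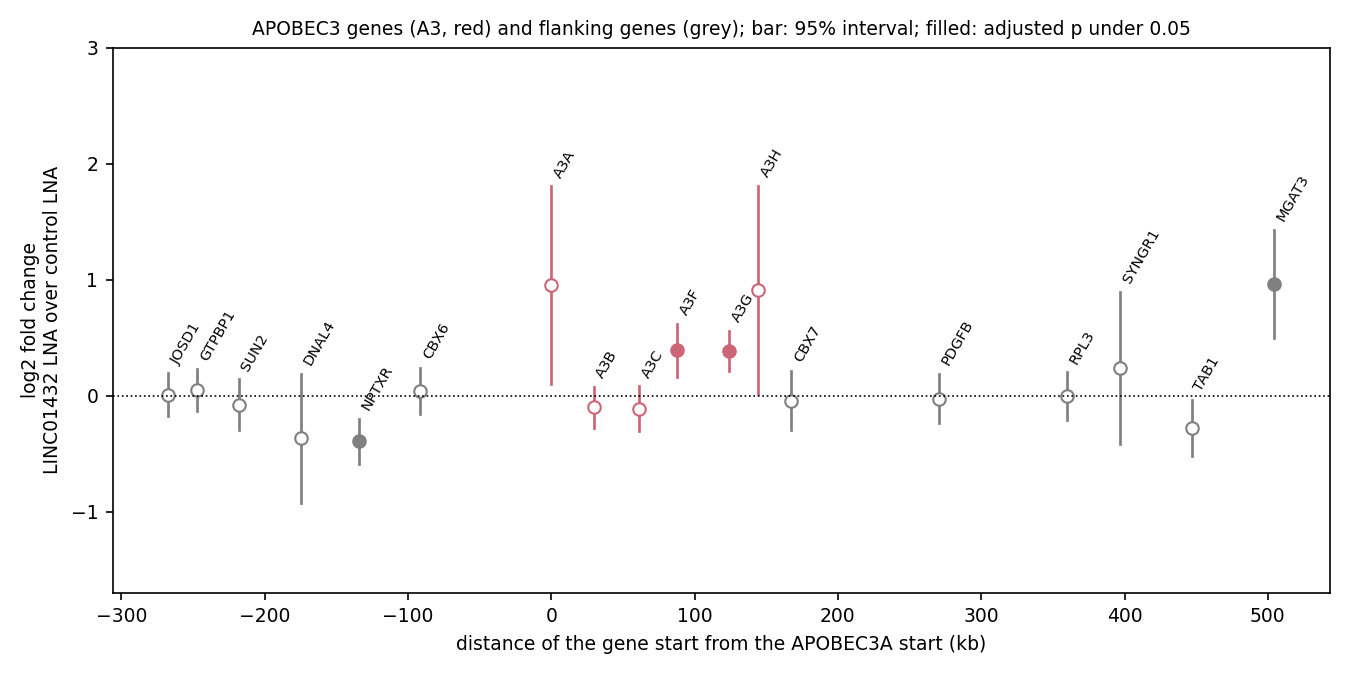
Log2 fold change with 95% interval of the tested APOBEC3 genes (red, A3) and of flanking genes (grey), against the distance of each gene start from the start of APOBEC3A in kb; filled points have an adjusted p under 0.05. The APOBEC3F and APOBEC3G points (0.39 each) are filled, and the flanking genes CBX6 and CBX7 lie near 0.

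GC content and the summed levels of markers of other cells moved with the groups and are given beside these results. The change of a gene followed its GC content, from a median log2 fold change of -0.13 in the lowest GC decile of genes to 0.40 in the highest. The members have transcript GC contents of 44.1% (SAMHD1) to 56.9% (BST2), where the medians were between -0.08 and 0.06. With a correction for GC content APOBEC3G (0.36) and APOBEC3F (0.36) stayed called, and SAMHD1 (0.24), ADAR (0.22) and BST2 (-0.039) stayed uncalled. Markers of T and NK cells, which express APOBEC3G and APOBEC3H, summed to 1.68 and 2.07 CPM in the control libraries and 2.19 and 2.93 CPM in the LINC01432 LNA libraries. Of these 10 markers 2 passed the filter. Myeloid markers, of which 3 of 10 passed, summed to 5.07 and 5.37, then 6.14 and 8.10 CPM, with LYZ and S100A8 at 0 in every library. The part of these markers in the rare APOBEC3A and APOBEC3H counts was not tested. Of the T cell genes, CD8A had 0.720 and 1.22 CPM in the controls and 1.26 and 1.74 CPM with LINC01432 LNA, CD3E had 0.285 to 0.514 CPM and CD3D at most 0.0791 CPM. The myeloid gene CD14 had 2.11 to 3.60 CPM. CD68, near the floor, went the other way (0.206 and 0.122, then 0.0465 and 0.0395 CPM). Fibroblast and endothelial markers, of which 2 of 10 passed the filter, summed to 4.66 and 4.798, then 6.33 and 7.79 CPM. Of the 2, COL1A1, a collagen gene of fibroblasts, rose 1.81-fold (edgeR adjusted p = 0.0272). PECAM1 was not called (1.26-fold, adjusted p = 0.430). The fibroblast genes COL1A2, COL3A1, DCN and LUM had at most 4 counts in a library, and PDGFRB overlapped between the groups.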

How the data were processed

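The 4 RNA-seq libraries of RPMI 8226 (2 control LNA, 2 LINC01432 LNA) were grouped by their titles. The authors deposited raw counts, 1 whole number for each gene and library. The tools named are bcl2fastq, Salmon 1.10.0, STAR 2.7.11b and, from Subread, featureCounts 2.0.8, with the build GRCh38, per the submitters' processing notes. Which tool made the table, on which annotation and with which strand setting, is not given in the sources that were used. The labels name both poly(A) selection and removal of ribosomal RNA. Rows of 92 ERCC spike-ins and 5 transgenes (at most 11 counts in a library) were left out.

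Genes were tested with edgeR 4.0.16 (R 4.3.3), by its quasi-likelihood F test, after TMM scaling and filterByExpr at its settings of 10 counts and 15 in total. The model held the group alone and was fitted on all 18680 genes that passed, with Benjamini-Hochberg adjustment over them. Standard errors and 95% intervals were derived from the F statistic. Exon lengths, GC content and overlaps came from GENCODE 29, promoters from RefSeq (GRCh38.p14). Alternatives were other scalings and filters, leaving out each library, the replicate block, a GC correction (lowess, span 0.3), both together, DESeq2 1.42.0 and a threshold of 0.01. On counts simulated for this comparison (18206 genes) edgeR recovered 84% of 1.5-fold and 100% of 2-fold changes. These changes were placed in well-counted genes alone, and all genes were simulated with the same common dispersion in both groups. The recovery therefore does not cover rare RNAs such as APOBEC3A and APOBEC3H, nor changes under 1.5-fold, nor a spread that differs between the groups. Named were LINC01432, the 10 members and up to 4 genes with the smallest p of each of 9 lists; other names were chosen after their values were seen. Members and lists were chosen with earlier results of these data known. Intervals and floors cover no more than the error they are computed from. Results for 2 list genes are not reported here.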

Additional observations from a re-analysis of the deposited data

How the results depend on the processing

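Of the members, 2 were called with all 4 libraries, and 0 to 6 when 1 library was left out. The count was 0 without either control library, 5 without LINC01432 LNA library 1 and 6 without library 2, of which 3 (APOBEC3B, APOBEC3C and BST2) were lower. These fits take their spread from the pair left whole. With library totals only, with DESeq2 and at a threshold of 0.01 the count was 1 (APOBEC3G), and with the GC correction and the replicate block together it was 4 (with ADAR and SAMHD1). Over all genes, 2218 were called, 766 to 5228 with 1 library left out, and 1000 at a threshold of 0.01. The replicate numbers are shared by the titles alone: the deviations of same-numbered libraries correlated at 0.126 over genes, from 2 pairs. The replicate block gave 3862 calls, 3763 with the GC correction, and with the block alone APOBEC3G (0.39) and APOBEC3F (0.39) were the 2 members called. The GC correction alone gave 881 higher and 976 lower genes (47.4% higher), against 1401 and 817. The sign of BST2 turned to -0.052 without control library 1, -0.30 without LINC01432 LNA library 2, -0.039 with the GC correction and -0.058 with the GC correction and the block, with 0.29 as its highest value; for the corrections the cause was not tested. The counts of APOBEC3A, APOBEC3D and APOBEC3H limit what can be resolved in them. Of 23 called genes named from the lists, 14 were called in every alternative fit.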

Other observations

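Genes of myeloma with a MAF translocation, the subtype in which APOBEC3 mutations are typical, included calls in both directions. Of 8 tested, 1 rose (12.5%, against 7.5% of all tested genes) and 2 fell (25%, against 4.37%). The median log2 fold change was -0.14. With 1 library left out, 0 to 2 rose and 1 to 4 fell. DEPTOR, an inhibitor of mTOR, went from 204 and 206 CPM in the control libraries to 127 and 122 CPM in the LINC01432 LNA libraries (log2 fold change -0.72, edgeR adjusted p = 0.000197), and it was called in all 12 alternative fits. CX3CR1, a chemokine receptor, fell from 436 and 422 to 339 and 344 CPM (-0.33, adjusted p = 0.0197). CCR1, another chemokine receptor, rose from 220 and 221 to 266 and 273 CPM (0.29, adjusted p = 0.0335). The last 2 calls were lost without either control library. CCND2, a cyclin that MAF induces, did not pass (-0.16, adjusted p = 0.272).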
